A study of Mus musculus with 16 samples.

Results

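Mouse microglia in which Rack1 had been conditionally knocked out were compared with and without an Alzheimer's disease (AD) model background. The 4 libraries are those labelled AD CKO (genotype Rack1 CKO AD, 2 replicates) and CKO (Rack1 conditional knockout without the AD model, 2 replicates), chosen by these labels from 16 libraries in all. Both groups therefore carry the Rack1 deletion, and they differ in the labels by the AD model alone. The other 12 libraries are microglia with Rack1 intact from the AD model (AD WT, 2) and from plain mice (WT, 2), and 8 astrocyte libraries of the same 4 genotypes. According to the series' text, the study asked what microglial Rack1 does in AD, with amyloid-beta aggregation, neuroinflammation and cognition as its readouts; the comparison here gives the AD-model effect on the microglial transcriptome once Rack1 is deleted.

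The labels and the series' text used here do not name the AD transgenes, the promoter that drives Cre, the age or sex of the mice, the way the microglia were isolated, or whether the replicates came from separate animals. The p-values below therefore measure the spread between these libraries, which may be technical. Each library was made from 10 ng of total RNA, per the labels' protocols, and the totals ran between 27741882 and 33933068 expected counts over the 8 microglia libraries. Levels are given as CPM, a gene's count scaled to the size of its library with TMM factors, and fold changes as log2 of AD CKO over CKO. The value after ± is an approximate standard error, the absolute log2 fold change divided by the square root of the test's F statistic. In bulk RNA, fewer cells of a type and less RNA per cell cannot be told apart. A gene passed at an adjusted p under 0.05 in edgeR's quasi-likelihood test, adjusted by Benjamini-Hochberg over the 17318 genes tested. Non-overlap of the groups was a condition for naming genes among the highest or lowest fold changes or the smallest p. For those genes, and for list members named for their small p, it is no separate support.

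Microglia are the resident macrophages of the brain. Near amyloid plaques they lower a homeostatic set of genes, such as purinergic receptors, and raise a disease-associated set driven in part by the lipid sensor TREM2 and its ligand APOE, with lysosomal, lipid-handling and adhesion genes among it. RACK1 is a WD-repeat scaffold that sits on the small ribosomal subunit and also binds protein kinase C and other signalling proteins.

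Rack1 itself (chr11:48800332-48806434 on mm10, plus strand) had 47.2 and 47.8 CPM in the AD CKO libraries, against 40.4 and 42 CPM in the CKO libraries. The AD WT libraries had 113 and 115 CPM and the WT libraries 98.1 and 95.2 CPM, so the transcript was lower in the knockouts but still measured in all 4 of them. Between AD CKO and CKO it differed by 0.21 ± 0.06 (adjusted p 0.0252). That call was lost when only the 4 libraries were fitted (adjusted p 0.0938), with limma-voom (adjusted p 0.056), and without AD CKO replicate 2, CKO replicate 1 or CKO replicate 2 (adjusted p 0.104, 0.111 and 0.0625).

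The sex-linked transcripts differed between the groups. Ddx3y (chrY:1260771-1286629), a Y-linked RNA helicase gene, had 62 and 60.3 CPM in the AD CKO libraries, against 0.0324 and 0.314 CPM in the CKO libraries. Uty, Eif2s3y and Kdm5d, also on the Y chromosome, summed with Ddx3y to 161 and 151 CPM in AD CKO, against 1.43 and 1.26 CPM in CKO. Xist, the RNA that coats the inactive X chromosome of female cells, had 84.7 and 79.3 CPM in the AD CKO libraries, against 259 and 237 CPM in the CKO libraries, and fell by 1.60 ± 0.06 on the log2 scale. The AD CKO libraries thus held both Xist and Y-linked transcripts, whereas the CKO libraries held Xist with every Y-linked gene of the 4 under 0.65 CPM. The sex makeup of the libraries and the AD model cannot be told apart in this comparison. The Rack1-intact pair differed the same way but by less: the 4 Y-linked genes summed to 70.5 and 68.4 CPM in AD WT, against 19.7 and 14.9 CPM in WT. Interactions between the AD model and the knockout, given below, therefore cannot be told apart from sex makeup either.

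RNA of other brain and blood cells also moved with the groups. Markers of oligodendrocytes summed to 2270 and 2320 CPM in AD CKO, against 8244 and 8635 CPM in CKO, and the CKO libraries were the highest of the 8 microglia libraries. Neutrophil markers summed to 278 and 292 CPM in AD CKO, against 630 and 629 CPM in CKO. Ependymal and choroid plexus markers went the other way, at 1444 and 1436 CPM in AD CKO, against 612 and 609 CPM in CKO. The 10 microglia markers summed to 28474 and 29234 CPM in AD CKO, against 26237 and 26865 CPM in CKO, so they were well measured in both groups. Both lay below the Rack1-intact libraries, with 41599 and 42011 CPM in AD WT and 46899 and 48720 CPM in WT.

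**Figure D1:**
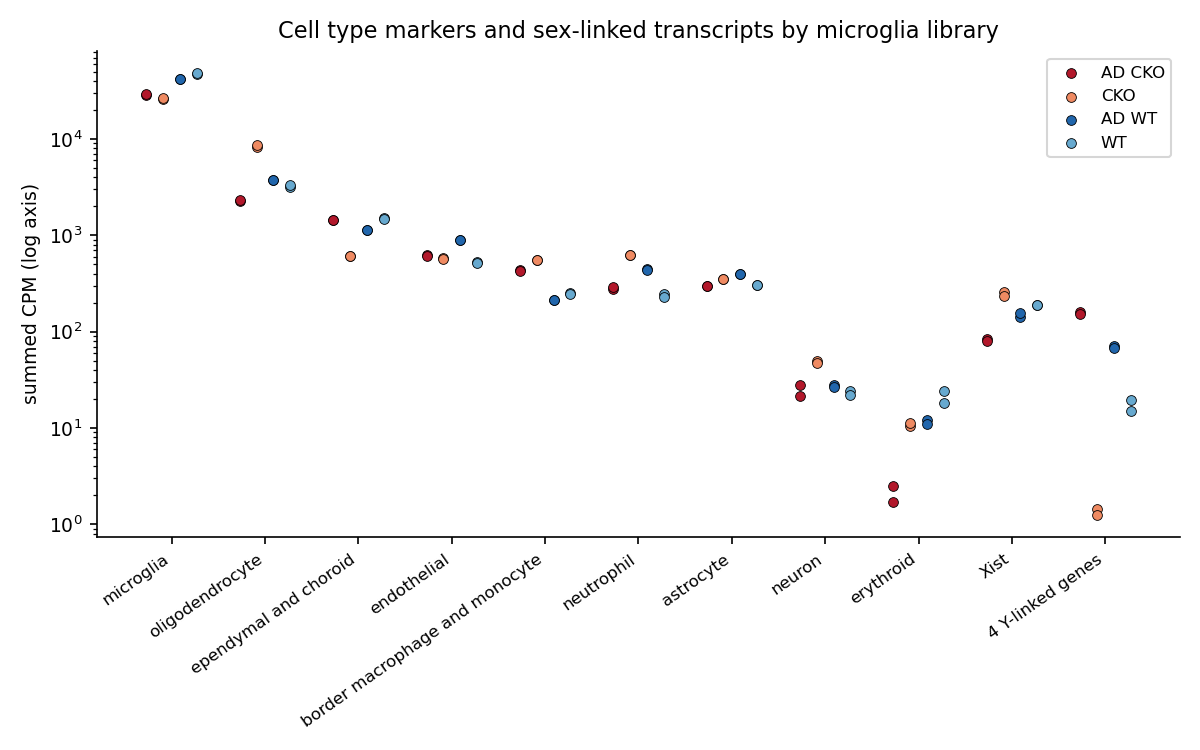
Summed CPM (log axis) of cell type marker lists, Xist and the 4 Y-linked genes, with a point for each of the 8 microglia libraries. AD CKO lies below CKO for oligodendrocyte, neutrophil, neuron and erythroid markers and for Xist, and above it for ependymal and choroid markers and the Y-linked genes.

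Over all genes tested, 1339 were higher in AD CKO than in CKO (7.73%) and 1199 were lower (6.92%), the background for the list counts below. By at least 2-fold, 157 were higher and 526 lower, while the median log2 fold change of all genes was -0.0013. Of the 526 genes that fell by at least 2-fold, 392 (74.5%) had a higher mean CPM in the astrocyte libraries than in the microglia libraries, compared with 46.5% of the genes that rose by at least 2-fold and 51.5% of the genes tested. Over all called genes the shares were 54.5% of those that fell and 39.3% of those that rose. From which cells these transcripts came was not tested. Leaving such genes out before the fit gave 783 higher and 531 lower genes of 8397. The count of lower genes came to 735 without CKO replicate 1 and 712 without AD CKO replicate 1.

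**Figure D2:**
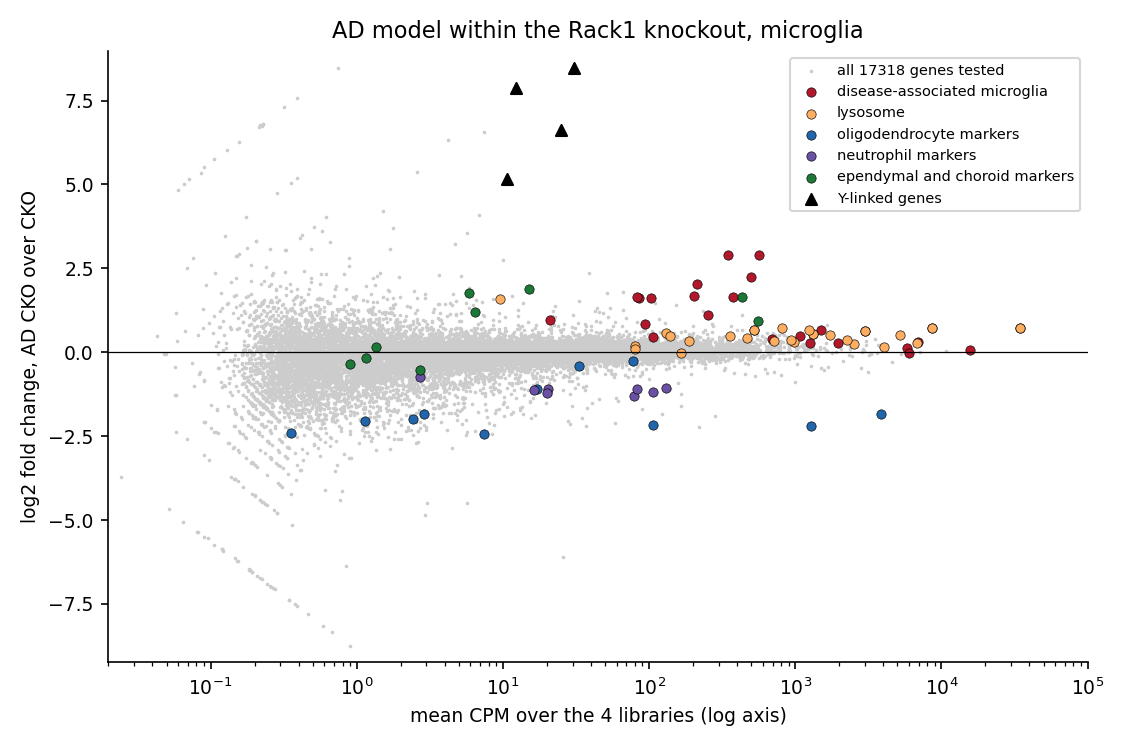
Log2 fold change of AD CKO over CKO against the mean CPM of the 4 libraries (log axis), a point per gene with counts in them. Disease-associated and lysosomal genes sit above 0 at high levels, oligodendrocyte and neutrophil markers below it, and the 4 Y-linked genes at the top.

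The AD-model effect was also measured where Rack1 was intact, in AD WT against WT, with 1851 genes higher (10.7%) and 1492 lower (8.62%). The lower genes numbered 869 and 780 without AD WT replicate 1 and AD WT replicate 2. The 2 comparisons share no library. Of the genes higher in AD CKO, 594 were also higher in AD WT, which is 44.4% of the list in the knockout and 32.1% of the list with Rack1 intact. Across all 17318 genes, which are not independent replicates, the log2 fold changes of the comparisons had a Pearson r of 0.11 and a Spearman rho of 0.159. Of the genes lower in AD CKO, 256 were lower in AD WT (21.4% and 17.2% of the lists), 135 were higher there, and 76 of the genes higher in AD CKO were lower in AD WT. The difference between the effects was tested as an interaction, the log2 effect within the knockout minus the log2 effect with Rack1 intact, and was positive for 957 genes (5.53%) and negative for 1245 (7.19%). Without AD WT replicate 1 and AD WT replicate 2 the positive interactions numbered 583 and 526.

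**Figure D3:**
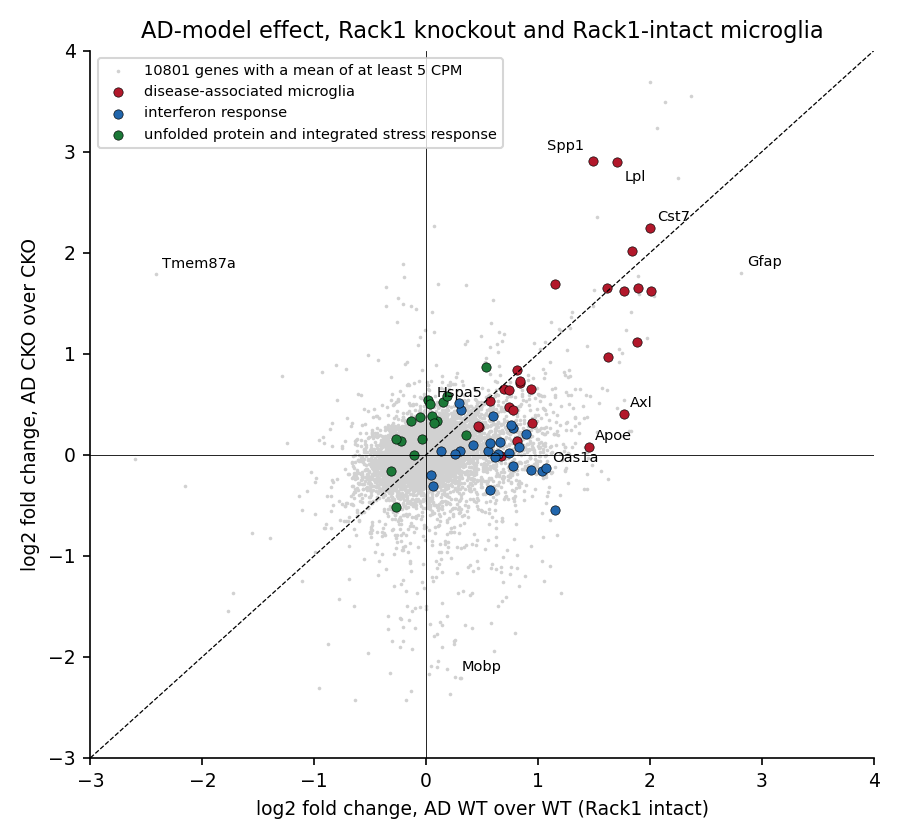
Log2 fold change of AD CKO over CKO (vertical) against that of AD WT over WT (horizontal) for the 10801 genes whose 8-library mean reached 5 CPM; 9 genes lie outside the axes, and the dashed line marks equal effects. Spp1 and Lpl lie above the line, most interferon genes lie to the right of it near a vertical value of 0, and genes of the unfolded protein response lie above it near a horizontal value of 0.

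The disease-associated program rose in the knockout microglia under the AD model. Of its 27 listed genes, 25 rose in AD CKO, by 0.14 to 2.91 on the log2 scale, and the list's median was 0.71, against 0.94 in AD WT over WT. Spp1 (chr5:104435118-104441050), which encodes the secreted adhesion protein osteopontin, had 1027 and 952 CPM in the AD CKO libraries, against 132 and 132 CPM in the CKO libraries, a 7.52-fold difference (log2 2.91 ± 0.05, adjusted p 7.35e-26). Lpl (chr8:68880491-68907448), the lipoprotein lipase that frees fatty acids from lipoprotein triglycerides, had 625 and 600.5 CPM in the AD CKO libraries, against 84.9 and 79.8 CPM in the CKO libraries (log2 2.90 ± 0.05, adjusted p 1.68e-25). For both genes the lowest AD CKO library lay far above the highest CKO library, though non-overlap was a condition for naming them.

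Cst7 (chr2:150570415-150578944), an inhibitor of cysteine cathepsins, had 818 and 816 CPM in the AD CKO libraries, against 173 and 170.3 CPM in the CKO libraries. Ank (chr15:27466677-27594909), a membrane protein that exports pyrophosphate and ATP, had 344 and 339 CPM in the AD CKO libraries, against 83.7 and 84.6 CPM in the CKO libraries. Both rose, by 2.25 ± 0.04 and 2.02 ± 0.04 on the log2 scale (adjusted p 1.82e-25 and 8.06e-23), and non-overlap of the groups was a condition for naming them. Among the secreted factors of the program, the chemokine Ccl6 rose by 1.69 ± 0.05, the growth factor Igf1 by 1.66 ± 0.07, and the macrophage growth factor Csf1 by 1.62 ± 0.06. The beta-glucan receptor Clec7a had 577 and 564 CPM in the AD CKO libraries, against 176 and 187 CPM in the CKO libraries (log2 1.65 ± 0.05). Trem2, the receptor on which the program partly depends, had 2063 and 2226 CPM in the AD CKO libraries, against 1718 and 1810 CPM in the CKO libraries and rose by 0.28 ± 0.04, a smaller change with no overlap of the groups.

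For some of these genes the AD-model effect differed between the Rack1-knockout and Rack1-intact pairs of groups. The AD-model effect was larger in the knockout for 5 of the 27 genes and smaller for 14. Spp1 had 482 and 467 CPM in AD WT, against 172 and 166 CPM in WT, so its log2 effect there was 1.49 and the interaction was 1.42 (adjusted p 8.28e-16). The interaction was 1.19 for Lpl, 0.54 for Ccl6, 0.25 for Cst7 and 0.18 for Ank, whereas Clec7a, with 0.04 (adjusted p 0.772), did not pass. The call for Ank was lost under limma-voom (adjusted p 0.0612) and in 10 of the 15 alternatives in all.

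Apoe (chr7:19696109-19699188), the lipid carrier that drives part of the program, did not pass. It had 16178 and 16098 CPM in the AD CKO libraries, against 14927 and 15580 CPM in the CKO libraries (log2 0.08 ± 0.04, adjusted p 0.226), compared with 9608 and 9757 CPM in AD WT, against 3341 and 3721 CPM in WT. Its level was thus high in all 4 knockout libraries, and the interaction was -1.37 (adjusted p 3.16e-10). The call depended on the settings: Apoe passed with no filter on low counts (adjusted p 0.00884) and without WT replicate 1 or 2 (adjusted p 0.0239 and 0.0223). Axl, a receptor for phosphatidylserine bridged by GAS6, rose by 0.41 ± 0.04 at 778 and 809 CPM in AD CKO, against 581 and 614 CPM in CKO, but in the Rack1-intact pair it had 624 and 635 CPM in AD WT, against 183 and 187 CPM in WT, and its interaction was -1.36. B2m, the light chain of MHC class I, had 6153 and 5867 CPM in the AD CKO libraries, against 6186 and 5924 CPM in the CKO libraries; the groups overlapped.

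**Figure D4:**
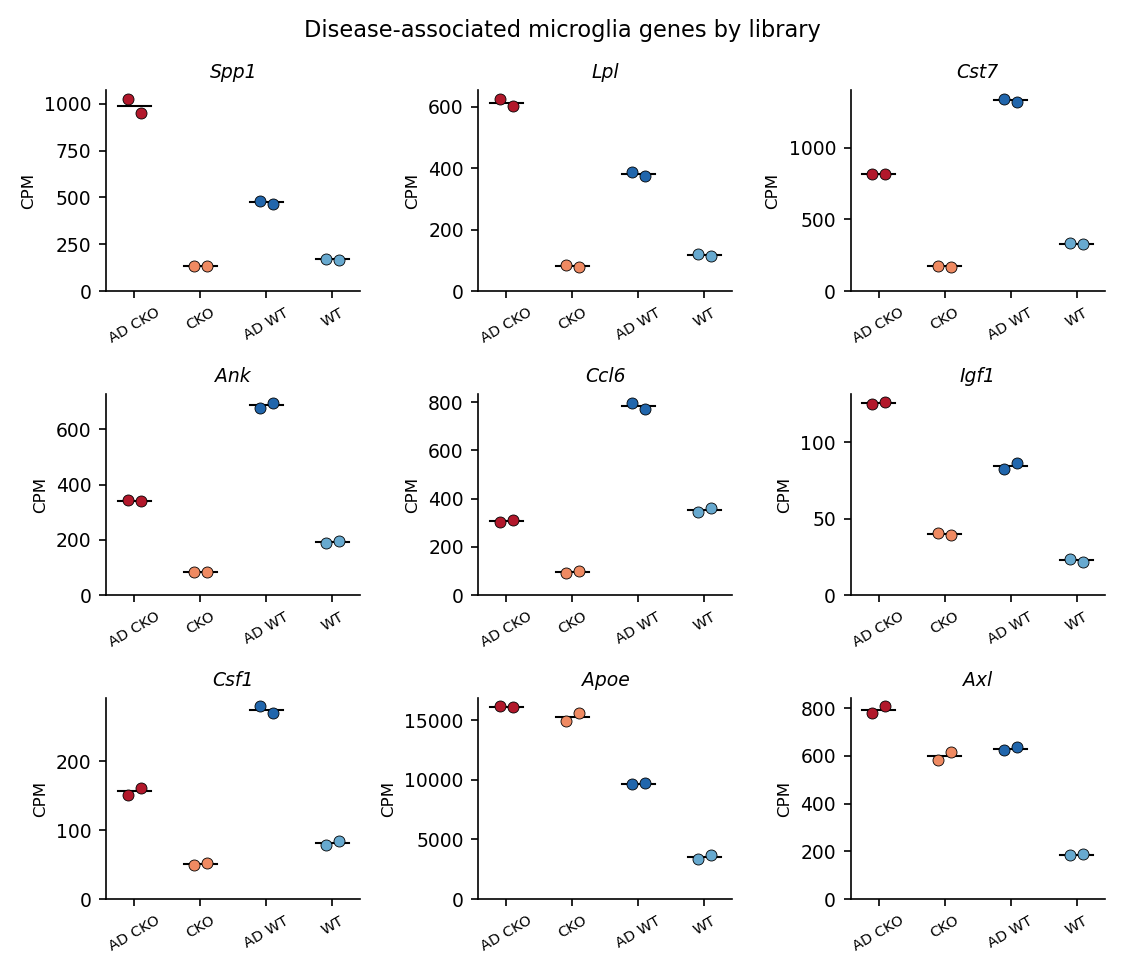
CPM of 9 genes of the disease-associated list in each of the 8 microglia libraries, with lines at the mean of each group of 2. Spp1 and Lpl are highest in AD CKO; Cst7, Ank, Ccl6 and Csf1 are higher in AD CKO than in CKO but highest in AD WT; Apoe and Axl are already high in CKO.

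The 12 highest fold changes also held genes outside that list, apart from the Y-linked genes. Dkk2 (chr3:132085292-132180304), a secreted modulator of Wnt signalling, had 11 and 10.1 CPM in the AD CKO libraries, against 0.649 and 1.15 CPM in the CKO libraries (log2 3.55 ± 0.23). Mamdc2 (chr19:23302609-23448442), an extracellular matrix proteoglycan gene, had 17.4 and 17.4 CPM in the AD CKO libraries, against 2.92 and 2.27 CPM in the CKO libraries (log2 2.74 ± 0.14). Ch25h (chr19:34473778-34475164), which makes 25-hydroxycholesterol, had 65.8 and 64.3 CPM in the AD CKO libraries, against 11.2 and 14.3 CPM in the CKO libraries (log2 2.36 ± 0.10, interaction 0.83). Dkk2, Mamdc2 and Ch25h also rose in AD WT over WT, by 2.37, 2.25 and 1.53. Kcne2 (chr16:92292389-92298129), a regulatory subunit of potassium channels, had 8.9 and 8.14 CPM in the AD CKO libraries, against 1.85 and 1.67 CPM in the CKO libraries (log2 2.27 ± 0.21). With Rack1 intact Kcne2 had 4.94 and 6.26 CPM in AD WT, against 5.77 and 4.92 CPM in WT and did not pass (log2 0.07, adjusted p 0.875), and its interaction was 2.20.

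Tmem87a (chr2:120355312-120404113), a Golgi membrane protein gene, stood out by its direction. It had 24.7 and 24.3 CPM in the AD CKO libraries, against 7.72 and 6.42 CPM in the CKO libraries, and rose by 1.79 ± 0.12 (adjusted p 7.4e-12). In the Rack1-intact pair it had 5.62 and 6.22 CPM in AD WT, against 33 and 30.1 CPM in WT, a fall of 2.41. The interaction was 4.20.

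Lipid-handling genes rose beside Lpl and Ch25h. Of 17 listed genes 9 rose, with a list median of 0.28: Fabp5, a fatty-acid binding protein, rose by 0.97 ± 0.10, and Soat1, which esterifies cholesterol for storage, by 0.58 ± 0.05. The fatty-acid and scavenger receptor Cd36 fell by 0.61 ± 0.10.

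Lysosomal genes rose broadly. The list has 25 genes, of which 23 rose, and its median was 0.48, against 0.44 in AD WT over WT. Ctsd (chr7:142375911-142388038), the aspartic protease cathepsin D, had 42513 and 43421 CPM in the AD CKO libraries, against 25386 and 26515 CPM in the CKO libraries (log2 0.73 ± 0.03, adjusted p 1.88e-16). The cysteine proteases Ctsl and Ctsb rose by 0.72 ± 0.04 and 0.71 ± 0.03, and Hexa, a subunit of beta-hexosaminidase, by 0.66 ± 0.03. The groups did not overlap for any of these 4 genes, but they were named for their small p, so this is no separate support.

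Not passing were Tfeb, the transcription factor that switches on many lysosomal genes, with 74.7 and 89.5 CPM in AD CKO, against 74.3 and 79.7 CPM in CKO, and the lysosomal calcium channel gene Mcoln1, with 168 and 159 CPM in AD CKO, against 163 and 167 CPM in CKO. TFEB and its relatives bind the CLEAR element, whose core is the E-box letters TCACGTG. The 250 bases before the transcription start held these letters, on either strand, in 7 of the 20 lysosomal genes that have a promoter in the RefSeq table (35%) and in 648 of 11976 tested genes with a promoter (5.41%). Of the 7, Mcoln1 held 3 matches and did not pass, while the others rose. Ctsl and Hexa rose without a match. Lamp1, a major lysosomal membrane glycoprotein, rose by 0.26 ± 0.03 and Glb1, the lysosomal beta-galactosidase, by 0.57 ± 0.05. Their upstream sequences are shown because Lamp1 holds the most matches of the 7 genes (4) and Glb1 holds 1, with the E-box in capitals (RefSeq, build GRCm38.p6, read 5′ to 3′ on the gene's strand and ended before the first base of the gene in GENCODE M21). A match in letters is no measurement of binding. The list was made of known lysosomal genes, so its share of matches says nothing about AD CKO against CKO.
Lamp1 (chr8:13158911-13159160, plus strand): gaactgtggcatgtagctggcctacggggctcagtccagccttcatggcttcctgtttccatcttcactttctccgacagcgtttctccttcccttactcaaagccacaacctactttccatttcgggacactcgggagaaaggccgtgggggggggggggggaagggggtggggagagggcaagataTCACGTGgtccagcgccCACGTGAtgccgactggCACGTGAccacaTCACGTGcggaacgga
Glb1 (chr9:114400828-114401075, plus strand): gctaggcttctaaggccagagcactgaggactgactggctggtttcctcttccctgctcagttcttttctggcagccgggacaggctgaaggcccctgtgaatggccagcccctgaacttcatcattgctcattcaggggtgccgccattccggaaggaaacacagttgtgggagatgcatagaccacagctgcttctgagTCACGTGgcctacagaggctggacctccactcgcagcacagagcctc

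Genes of protein folding in the endoplasmic reticulum (ER) rose in AD CKO, and here the effect was not seen to the same extent with Rack1 intact. When unfolded proteins build up, ATF6 and XBP1 raise ER chaperones while ATF4 raises amino acid and redox genes. Of 22 listed genes 12 rose and 2 fell, with a median of 0.32. In AD WT over WT 4 rose and 4 fell, with a median of 0.03, and the interaction was positive for 10. Hspa5 (chr2:34771970-34777547), the chaperone BiP, had 994 and 963 CPM in the AD CKO libraries, against 686 and 693 CPM in the CKO libraries (log2 0.51 ± 0.04, adjusted p 4.06e-11), compared with 782 and 753 CPM in AD WT, against 753 and 747 CPM in WT. Both CKO libraries were below the WT libraries, and both AD CKO libraries above them.

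Calr (chr8:84841850-84846934), a calcium-binding lectin chaperone, had 762 and 781 CPM in the AD CKO libraries, against 515 and 517 CPM in the CKO libraries (log2 0.58 ± 0.04), compared with 810.3 and 813 CPM in AD WT, against 712 and 713 CPM in WT. The ER form of HSP90, Hsp90b1, rose by 0.52 ± 0.04 and the co-chaperone Sdf2l1 by 0.87 ± 0.06. The interaction was 0.47 for Hspa5, 0.39 for Calr, 0.37 for Hsp90b1 and 0.34 for Sdf2l1. With Rack1 intact Sdf2l1, Calr and Hsp90b1 also rose, by 0.54, 0.19 and 0.15, while Hspa5 did not pass (log2 0.03). Sesn2, a stress-induced regulator of growth signalling, and Herpud1, a gene of ER-associated degradation, fell by 0.51 and 0.16. The call for Herpud1 was lost with no filter on low counts (adjusted p 0.0948) and without AD CKO replicate 1, AD CKO replicate 2, CKO replicate 1 or CKO replicate 2 (adjusted p 0.0698, 0.11, 0.0726 and 0.131). Leaving out genes with a higher level in the astrocyte libraries dropped 12 of the 22 genes, and 6 of the remaining 10 rose.

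The ER stress response element, searched on either strand as CCAAT, 9 bases of any kind and CCACG, is bound by ATF6 with NF-Y. It lay within 250 bases of the start in 6 of the 21 listed genes with a promoter (28.6%) and in 19 of the 11976 tested genes (0.159%). All 6 are among the 12 genes that rose, and Sdf2l1 was among those that rose without a match. The list was made of known genes of this response, so its share says nothing about AD CKO against CKO. Whether the element took part in the rise was not tested. Calr and Creld2, an ER chaperone of secreted proteins that rose by 0.32 ± 0.06, are shown, with the element in capitals; in both it lies on the opposite strand.
Calr (chr8:84846935-84847181, minus strand): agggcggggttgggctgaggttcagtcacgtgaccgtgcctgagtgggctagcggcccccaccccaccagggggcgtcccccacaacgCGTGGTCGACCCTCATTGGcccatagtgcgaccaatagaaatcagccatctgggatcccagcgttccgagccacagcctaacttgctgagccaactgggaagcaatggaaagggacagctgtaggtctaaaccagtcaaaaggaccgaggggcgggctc
Creld2 (chr15:88819396-88819645, plus strand): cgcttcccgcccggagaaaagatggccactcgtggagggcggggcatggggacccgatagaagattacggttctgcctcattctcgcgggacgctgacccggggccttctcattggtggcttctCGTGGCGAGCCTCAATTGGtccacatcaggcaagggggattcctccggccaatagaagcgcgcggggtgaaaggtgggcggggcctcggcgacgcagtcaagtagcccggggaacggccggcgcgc

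Glycolytic genes rose as a group, 12 of 17, with a median of 0.36 (AD WT over WT, 13 of 17 and 0.40). Tpi1, triosephosphate isomerase, had 237 and 243 CPM in the AD CKO libraries, against 157 and 165 CPM in the CKO libraries (log2 0.58 ± 0.05). Aldoa, an aldolase, rose by 0.50 ± 0.04, the pyruvate kinase gene Pkm by 0.46 ± 0.04 and the enolase gene Eno1 by 0.38 ± 0.04. Only 5 of the 17 genes have a level in the microglia libraries at least as high as in the astrocyte libraries, and 3 of those 5 rose when the others were left out of the fit.

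Protein-coding transcripts of the mitochondrial genome fell. Of 13 genes 9 fell, by 0.35 to 0.59 on the log2 scale, and the median was -0.53; in AD WT over WT 5 rose. The cytochrome oxidase subunit gene mt-Co1 had 2556 and 2457 CPM in the AD CKO libraries, against 3772 and 3777 CPM in the CKO libraries (log2 -0.59 ± 0.03, interaction -0.83). The groups did not overlap, and the CKO libraries were the highest of the 8. The nuclear genes of oxidative phosphorylation had a median of 0.08 over 32 genes. Likewise mt-Nd4 of complex I fell by 0.59 ± 0.04, mt-Atp6 of the ATP synthase by 0.53 ± 0.04 and mt-Cytb of complex III by 0.47 ± 0.04. All 13 genes had a higher CPM in the astrocyte libraries than in the microglia libraries, and the oligodendrocyte markers fell in the same libraries; their part in the result was not tested.

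The interferon response to the AD model differed between the Rack1-knockout and Rack1-intact pairs of groups. Type I interferon raises a large set of antiviral genes through its receptor. Of 25 listed genes 4 rose and 3 fell in AD CKO, with a median of 0.04, whereas 21 rose in AD WT over WT with a median of 0.62, and the interaction was negative for 17. The chemokine Cxcl10 had 79.6 and 76.6 CPM in the AD CKO libraries, against 54.1 and 55.2 CPM in the CKO libraries (log2 0.51 ± 0.08) and Bst2, the tethering factor of enveloped viruses, rose by 0.45 ± 0.06. Rsad2 and Ifit2, both antiviral effectors, rose by 0.38 and 0.21. Rtp4, Slfn2 and Ifi44 fell, by 0.34, 0.31 and 0.55. The call for Rsad2 was lost without AD CKO replicate 1, AD CKO replicate 2 or CKO replicate 1 (adjusted p 0.129, 0.0724 and 0.214), that for Ifit2 without AD CKO replicate 1, CKO replicate 1 or CKO replicate 2 (adjusted p 0.141, 0.116 and 0.0591), and that for Ifi44 without AD CKO replicate 1 or CKO replicate 1 (adjusted p 0.0542 and 0.102).

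Oas1a (chr5:120896256-120907521), a sensor of double-stranded RNA, did not pass. It had 64 and 63.9 CPM in the AD CKO libraries, against 72 and 68.2 CPM in the CKO libraries, compared with 47.6 and 45 CPM in AD WT, against 21.2 and 23 CPM in WT, so the CKO libraries were the highest of the 8 and the interaction was -1.20 (adjusted p 2.18e-09). The summed level of the 25 genes was 1801 and 1779 CPM in AD CKO, against 1733 and 1740 CPM in CKO, and 1052 and 1061 CPM in AD WT, against 745 and 743 CPM in WT.

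The core of the interferon-stimulated response element, searched on either strand as a pair of GAAA with 2 bases of any kind between them, lay within 250 bases of the start of 10 of 18 listed genes with a promoter (55.6%), against 409 of the 11976 tested genes (3.42%). Because the list was made of known interferon-response genes, its share says nothing about AD CKO against CKO. Binding was not measured. Of the pair shown, Cxcl10 rose in AD CKO and Oas1a did not pass; the element is in capitals, and in Oas1a 2 overlapping matches run together.
Cxcl10 (chr5:92348890-92349139, minus strand): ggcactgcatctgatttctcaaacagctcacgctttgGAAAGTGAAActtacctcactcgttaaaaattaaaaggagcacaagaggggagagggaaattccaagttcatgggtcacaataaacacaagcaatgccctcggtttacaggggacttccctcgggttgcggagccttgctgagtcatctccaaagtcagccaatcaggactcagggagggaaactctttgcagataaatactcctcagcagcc
Oas1a (chr5:120907526-120907775, minus strand): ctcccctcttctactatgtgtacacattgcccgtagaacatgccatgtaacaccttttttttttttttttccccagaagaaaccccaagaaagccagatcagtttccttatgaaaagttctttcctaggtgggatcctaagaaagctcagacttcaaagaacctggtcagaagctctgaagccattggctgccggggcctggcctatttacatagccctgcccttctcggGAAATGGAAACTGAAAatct

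Antigen presentation followed the class. For MHC class I, 2 of 13 genes rose and 1 fell, with a median of 0.05, where 7.73% of all genes tested rose and 6.92% fell. In AD WT over WT 11 rose, against 10.7% of all genes tested, with a median of 0.66, and 9 interactions were negative. The 13 genes summed to 15870 and 15648 CPM in AD CKO, against 15046 and 15214 CPM in CKO. With Rack1 intact they summed to 9277 and 9350 CPM in AD WT, against 5926 and 6025 CPM in WT. By this sum every knockout library, with or without the AD model, lay above every Rack1-intact library. The heavy chain gene H2-D1 had 6091 and 6087 CPM in the AD CKO libraries, against 5380 and 5674 CPM in the CKO libraries (log2 0.14 ± 0.03), a call lost without CKO replicate 1 (adjusted p 0.0606), while H2-K1 had 1654 and 1663 CPM in AD CKO, against 1547 and 1590 CPM in CKO and passed only with limma-voom (adjusted p 0.0335). Tapbp, which loads peptides, rose by 0.17, and H2-Q6 fell by 0.22, a call lost without AD CKO replicate 1, AD CKO replicate 2 or CKO replicate 2 (adjusted p 0.109, 0.0721 and 0.166). MHC class I genes are close paralogs, so reads may be split among them.

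For MHC class II and costimulation, 5 of 10 genes fell, and the median was -0.32. Cd74 (chr18:60803848-60812652), the invariant chain, had 1410 and 1399 CPM in the AD CKO libraries, against 1857 and 1993 CPM in the CKO libraries (log2 -0.45 ± 0.04, adjusted p 1.08e-09), whereas it had 1365 and 1354 CPM in AD WT, against 974 and 1046 CPM in WT. The chains H2-Ab1, H2-Aa and H2-Eb1 fell by 0.50 ± 0.04, 0.48 ± 0.04 and 0.47 ± 0.05, and Ciita, their transcriptional coactivator, by 0.71 ± 0.17. Cd86, a costimulatory ligand, rose by 0.18. The call for Ciita was lost without AD CKO replicate 2 (adjusted p 0.0524), and that for Cd86 without AD CKO replicate 1 or CKO replicate 1 (adjusted p 0.0513 and 0.0731). Markers of border macrophages and monocytes, cells rich in MHC class II, fell in the same libraries (9 of 10 genes, summed 440 and 427 CPM in AD CKO, against 560 and 559 CPM in CKO); their part in the result was not tested.

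Homeostatic microglial genes did not fall together. Of 16 genes 3 rose and 5 fell, and the median was 0.01, against 13 lower and a median of -0.27 in AD WT over WT. The interaction was positive for 12. The 16 genes summed to 46630 and 46725 CPM in AD CKO, against 44802 and 45337 CPM in CKO. With Rack1 intact they summed to 68231 and 68501 CPM in AD WT, against 79574 and 81542 CPM in WT. By this sum every knockout library, with or without the AD model, lay below every Rack1-intact library. Fcrls (chr3:87250758-87263738), an Fc-receptor-like scavenger receptor of microglia, had 2096 and 2134 CPM in the AD CKO libraries, against 1177 and 1232 CPM in the CKO libraries (log2 0.81 ± 0.03), compared with 3294 and 3299 CPM in AD WT, against 2653 and 2802 CPM in WT. Its level was lower in every knockout library than in every Rack1-intact library.

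The sialic-acid lectin Siglech rose by 0.31 ± 0.04. P2ry12, the ADP receptor that steers microglial processes, had 4247 and 4015 CPM in the AD CKO libraries, against 5041 and 5033 CPM in the CKO libraries and fell by 0.29 ± 0.03; with Rack1 intact it fell by 0.58. The related receptor P2ry13, the transcription factor Sall1, the fructose transporter Slc2a5 and the receptor Gpr34 fell by 0.26, 0.31, 0.14 and 0.10. The call for Slc2a5 was lost with no filter on low counts (adjusted p 0.126) and without AD CKO replicate 2 or CKO replicate 1 (adjusted p 0.236 and 0.249). That for Gpr34 was lost with RLE scaling, DESeq2, no filter and only the 4 libraries (adjusted p 0.0976, 0.102, 0.365 and 0.056) and on leaving out any AD CKO, CKO or AD WT library (adjusted p 0.0839 to 0.483). Csf1r, the receptor for CSF1 and IL-34, had 7076 and 7197 CPM in the AD CKO libraries, against 6978 and 7131 CPM in the CKO libraries, and Cst3, cystatin C, 10635 and 11010 CPM in the AD CKO libraries, against 10419 and 10731 CPM in the CKO libraries; for both the groups overlapped. With RLE scaling 5 genes rose, 2 more than with TMM.

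**Figure D5:**
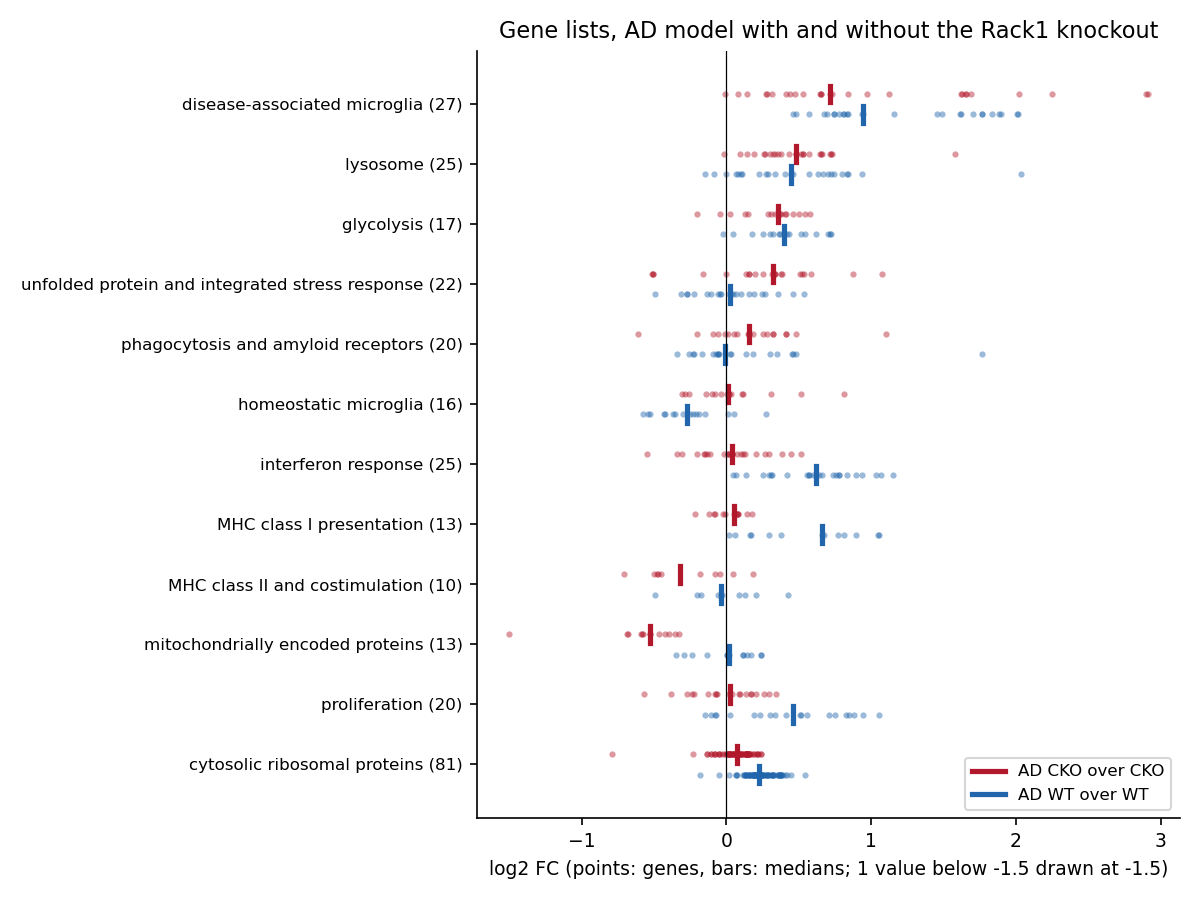
Log2 fold changes of the members (points) and medians (bars) of 12 gene lists, for AD CKO over CKO above AD WT over WT in each row, with the number of genes tested in parentheses; 1 mitochondrial gene is drawn at the left edge. The medians of the disease-associated, lysosomal and glycolytic lists lie between 0.36 and 0.94 in both comparisons. The ER stress median is 0.32 in AD CKO over CKO and 0.03 in AD WT over WT, while the interferon, MHC class I and proliferation medians are 0.04, 0.05 and 0.03 in AD CKO over CKO and 0.62, 0.66 and 0.46 in AD WT over WT.

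Of 20 receptors for amyloid and debris 10 rose and 2 fell, with a list median of 0.15. Cd14, the lipopolysaccharide co-receptor, had 596 and 591 CPM in the AD CKO libraries, against 282 and 271 CPM in the CKO libraries (log2 1.10 ± 0.04, interaction 0.75). Tlr2, a Toll-like receptor for lipopeptides, rose by 0.41 ± 0.04, and beside Cd36 the sialic-acid receptor Cd33 fell, by 0.20, a call lost without CKO replicate 1 (adjusted p 0.0755). Of 15 complement genes 6 rose, among them the receptor C3ar1 by 0.32 ± 0.04 and the C1q chain C1qb by 0.19 ± 0.04; the last call was lost with limma-voom (adjusted p 0.0925).

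Of 20 chemokines and their receptors 6 rose and 5 fell. The inflammatory chemokines Ccl4 and Ccl3 rose by 0.78 ± 0.05 and 0.65 ± 0.04, less than with Rack1 intact (interaction -0.51 and -0.68). Cxcl13 (chr5:95956951-95961068), a B-cell attractant, had 349 and 351 CPM in the AD CKO libraries, against 553 and 553 CPM in the CKO libraries and fell by 0.66 ± 0.05, while the Rack1-intact libraries had at most 1.33 CPM. Cxcl2, Ccr1, Ccl7 and Ccr2 fell by 1.05, 0.65, 0.53 and 0.48. Ccr2 is also in the list of border macrophage and monocyte markers. Those markers and the neutrophil markers fell in the same libraries, and their part in these falls was not tested. The call for Ccl7 was lost without AD CKO replicate 2, CKO replicate 1 or CKO replicate 2 (adjusted p 0.1, 0.0507 and 0.0653), and that for Ccr2 without AD CKO replicate 2 or CKO replicate 1 (adjusted p 0.075 and 0.0928).

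Inflammatory cytokines moved little as a group, with a median of 0.09 over 19 genes. Tnf had 42.9 and 45.1 CPM in the AD CKO libraries, against 29.4 and 31.8 CPM in the CKO libraries (log2 0.52 ± 0.09), and Nfkbiz, a nuclear regulator of NF-kB targets, and Il6 rose by 0.44 ± 0.07 and 0.45 ± 0.14. The call for Il6 was lost with DESeq2 (adjusted p 0.0508) and without AD CKO replicate 1, AD CKO replicate 2, CKO replicate 1 or CKO replicate 2 (adjusted p 0.0644, 0.139, 0.166 and 0.0684). Il1b had 30.1 and 29.1 CPM in the AD CKO libraries, against 38.3 and 38.3 CPM in the CKO libraries and fell by 0.37 ± 0.08, where with Rack1 intact it rose by 0.30. The part of the neutrophil and monocyte markers, which fell in the same AD CKO libraries, was not tested.

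In AD WT over WT 40 of 81 ribosomal protein genes rose, against 10.7% of all genes tested, with a median of 0.23. RACK1 joins the ribosome, and in AD CKO 8 of the 81 rose, against 7.73% of all genes tested, with a median of 0.07. That count was 2 without AD CKO replicate 2, 4 without CKO replicate 1 or 2, and 13 without AD CKO replicate 1; many ribosomal protein genes have near-identical pseudogene copies, so their counts are uncertain. Of 33 translation factors 11 rose and Eif2s3x, an X-linked subunit of the initiation factor eIF2, fell by 0.24, a call lost without AD CKO replicate 1 or CKO replicate 2 (adjusted p 0.157 and 0.167). The number that rose was 5 without CKO replicate 2 and 7 without CKO replicate 1 or AD CKO replicate 2.

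Proliferation genes differed little. Of 20 genes the replication factor Mcm6 rose by 0.34 and Stmn1, a regulator of microtubules, fell by 0.57, with a median of 0.03, against 10 higher and a median of 0.46 in AD WT over WT. The shares over all genes tested were 7.73% higher and 6.92% lower in AD CKO, and 10.7% higher in AD WT. The call for Mcm6 was lost without AD CKO replicate 1 (adjusted p 0.0825). Of 22 immediate early and dissociation genes 9 rose, including Egr2 at 18.3 and 17.4 CPM in AD CKO, against 8.14 and 6.87 CPM in CKO and Egr1 at 219.6 and 227 CPM in AD CKO, against 151 and 154 CPM in CKO, by 1.25 ± 0.12 and 0.55 ± 0.05. The heat shock genes Hspa1a and Hspa1b and the nuclear receptor Nr4a1 fell, by 0.76, 0.57 and 0.43, and the call for Hspa1b was lost without AD CKO replicate 1 (adjusted p 0.0568). How the cells were handled is not given in the sources used here.

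Of 17 genes tied to amyloid and tau 4 rose and 4 fell, with a list median of 0.08. With genes at a higher level in the astrocyte libraries left out of the fit, 2 rose and 0 fell. Aplp2, an APP paralog, had 551 and 506 CPM in the AD CKO libraries, against 332 and 335 CPM in the CKO libraries (log2 0.66 ± 0.04). Mapt, which encodes tau, had 3.05 and 3.42 CPM in the AD CKO libraries, against 13.3 and 11.2 CPM in the CKO libraries and fell by 1.92 ± 0.18, and Aplp1, another APP paralog, fell by 0.87. Oligodendrocyte and neuron markers fell in the same libraries, and their part in these falls was not tested. Hpgd, which inactivates prostaglandins, had 159 and 153 CPM in the AD CKO libraries, against 79 and 78.6 CPM in the CKO libraries (log2 0.99 ± 0.05), compared with 296 and 288 CPM in AD WT, against 422 and 415 CPM in WT, where it fell.

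Oligodendrocyte and neuronal genes fell. Of 11 oligodendrocyte markers 10 fell, with a median of -1.99, and of 12 neuron markers 8 fell, with a median of -1.69. Mobp (chr9:120149707-120181484), the gene of myelin-associated oligodendrocyte basic protein, had 466 and 444 CPM in the AD CKO libraries, against 2086 and 2091 CPM in the CKO libraries (log2 -2.20 ± 0.04, adjusted p 1.77e-25). Mbp had 1648 and 1723 CPM in the AD CKO libraries, against 5808 and 6210 CPM in the CKO libraries (log2 -1.83 ± 0.04). Fbxl16, which is in no marker list, had 1.68 and 1.73 CPM in the AD CKO libraries, against 9.02 and 9.97 CPM in the CKO libraries. The axonal kinesin gene Kif5a, also in no marker list, had 78.5 and 77.9 CPM in the AD CKO libraries, against 356 and 369.8 CPM in the CKO libraries (log2 -2.21 ± 0.05). All 12 neuron markers together summed to less, 27.8 and 21.6 CPM in AD CKO, against 50.1 and 47.7 CPM in CKO. From which cells the Kif5a transcripts came was not tested. Snap25, a synaptic vesicle fusion gene, had 3.94 and 3.91 CPM in the AD CKO libraries, against 7.85 and 9.9 CPM in the CKO libraries. For none of these genes did AD CKO and CKO overlap, which was a condition for naming those with the lowest fold changes.

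Astrocyte markers parted from Gfap. Of 10 markers 8 fell, among them the glutamate transporter Slc1a2 with 11.1 and 9.69 CPM in AD CKO, against 29 and 29.6 CPM in CKO, while the reactive filament gene Gfap (chr11:102887336-102900912) had 104 and 101 CPM in the AD CKO libraries, against 29 and 29.7 CPM in the CKO libraries and rose by 1.80 ± 0.07. With Rack1 intact Gfap had 110.2 and 116 CPM in AD WT, against 15.6 and 16.7 CPM in WT. Ependymal and choroid genes rose in 5 of 9: the thyroxine carrier Ttr had 707 and 755 CPM in the AD CKO libraries, against 379.5 and 384 CPM in the CKO libraries, and Kl, Enpp2, Folr1 and Clic6 rose by 1.89, 1.66, 1.76 and 1.21.

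Markers of neutrophils, border macrophages and monocytes, and erythroid cells fell. Of 8 neutrophil markers 7 fell, including the granule gene Ngp with 79.9 and 89.4 CPM in AD CKO, against 169.8 and 183 CPM in CKO, S100a9 with 61.3 and 67.7 CPM in AD CKO, against 147 and 146 CPM in CKO and lactoferrin (Ltf) with 52.5 and 52.5 CPM in AD CKO, against 115 and 111 CPM in CKO. Among border macrophage and monocyte markers the mannose receptor Mrc1 had 151 and 141 CPM in AD CKO, against 203 and 195 CPM in CKO, Cd163 13.2 and 13.8 CPM in AD CKO, against 20.2 and 21.2 CPM in CKO and the monocyte gene Ly6c2 9.48 and 8.81 CPM in AD CKO, against 14.8 and 17.4 CPM in CKO. All 4 erythroid genes fell, and they summed to 1.71 and 2.48 CPM in AD CKO, against 10.5 and 11.2 CPM in CKO. None of the 10 T and NK cell markers passed with edgeR, DESeq2 or limma-voom, and 1 had an unadjusted p under 0.05 in edgeR; of the 8 B and plasma cell markers 0 passed with any of the 3 tools and 0 had an unadjusted p under 0.05. T and NK cell markers summed to 9.04 and 8.93 CPM in AD CKO, against 11.6 and 10.8 CPM in CKO, endothelial markers to 623 and 613 CPM in AD CKO, against 576 and 565 CPM in CKO, and mural markers to 234 and 232 CPM in AD CKO, against 249 and 245 CPM in CKO.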

How the data were processed

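RNA from microglia of 4 genotypes (2 libraries each) was sequenced as SMART-Seq v4 libraries with paired 150-base reads, per the labels' protocols. The submitters' processing notes name fastp, HISAT2, StringTie and the mm10 build; versions are not given in the sources used here. The deposited gene tables hold expected counts per gene (55414 features, partly fractional), which were rounded to whole numbers. Of the IDs, 52133 (94.1%) matched GENCODE M21, which gave the coordinates.

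All 8 microglia libraries were fitted together with edgeR 4.0.16 in R 4.3.3 (filterByExpr, TMM, quasi-likelihood test, robust), with a threshold of 0.05 on the Benjamini-Hochberg adjusted p. The fit's common biological coefficient of variation was 0.0678. CPM are scaled counts. Replicates of a group differed by more than sampling noise, with a chi-square per gene of 3.63 to 6.16. Each library was treated as 1 sample in the fit. Such a spread may be technical, so it does not show that the replicates came from separate animals.

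The members and gene lists were chosen with earlier results of these data known. Named genes are Rack1, the 12 highest and 12 lowest fold changes among genes that passed with a mean of 5 CPM or more and groups that do not overlap, the 6 with the smallest p, leading interactions, and up to 4 members of each program list or 3 of each marker list by p, plus up to 2 that did not pass; predicted names were left out, and a few genes are not reported here. Xist, Clec7a, Trem2, Oas1a, Lamp1, Glb1 and Creld2, and the members named to complete a count of 5 or fewer, were chosen after their values were seen. Alternatives were RLE scaling, DESeq2 1.42.0, limma-voom (limma 3.58.1), no filter, at least 1 CPM in 2 libraries, a replicate block, only the 4 libraries compared, leaving out genes with a higher level in the astrocyte libraries, and leaving out each library.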

Additional observations from a re-analysis of the deposited data

Results flagged for a closer look

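Genes are listed here because the AD-model effect itself differed between Rack1-knockout and Rack1-intact microglia at an adjusted p under 0.05 in edgeR's interaction test. Each value is the log2 fold change of AD CKO over CKO minus that of AD WT over WT, so a positive value is a higher one within the knockout. Among the sex-linked genes, it was 6.32 for Ddx3y, 5.59 for Uty, 4.94 for Eif2s3y, 3.13 for Kdm5d, -0.28 for Eif2s3x and -1.25 for Xist. Of the disease-associated and lipid genes, it was 1.42 for Spp1, 1.19 for Lpl, 0.83 for Ch25h, 0.54 for Ccl6, 0.25 for Cst7, 0.18 for Ank, -0.13 for Ctsb, -0.18 for Trem2, -0.65 for Fabp5, -0.68 for B2m, -1.36 for Axl and -1.37 for Apoe. For the homeostatic genes, it was 0.61 for Siglech, 0.54 for Fcrls, 0.38 for Slc2a5, 0.29 for P2ry12, 0.29 for P2ry13, 0.26 for Cst3, 0.26 for Gpr34 and 0.21 for Csf1r. Among the ER chaperones, it was 0.47 for Hspa5, 0.39 for Calr, 0.37 for Hsp90b1 and 0.34 for Sdf2l1. Of the receptors, complement and lysosomal or glycolytic enzymes, it was 0.75 for Cd14, -0.17 for C3ar1, -0.22 for Glb1, -0.24 for Pkm and -0.52 for Cd36. For the interferon genes, it was -0.37 for Slfn2, -0.69 for Ifit2, -0.91 for Rtp4, -1.20 for Oas1a and -1.70 for Ifi44. Among the antigen presentation genes, it was 0.22 for Cd86, -0.30 for H2-Eb1, -0.58 for H2-K1, -0.58 for H2-Ab1, -0.67 for H2-D1, -0.69 for H2-Aa, -0.88 for Cd74 and -1.27 for H2-Q6. Of the cytokine, chemokine and early response genes, it was 0.41 for Egr1, -0.37 for Nfkbiz, -0.51 for Ccl4, -0.67 for Il1b, -0.68 for Ccl3, -1.14 for Cxcl2, -1.21 for Nr4a1 and -1.34 for Cxcl13. For Cxcl13 the Rack1-intact part of this difference rests on the very low levels given above. For the mitochondrial transcripts, it was -0.61 for mt-Cytb, -0.65 for mt-Atp6, -0.70 for mt-Nd4 and -0.83 for mt-Co1. Among the ependymal and choroid genes, it was 2.09 for Kl, 2.02 for Enpp2, 1.96 for Folr1, 1.36 for Ttr and 1.14 for Clic6. Of the oligodendrocyte, astrocyte and neuron markers, it was -1.01 for Gfap, -1.24 for Snap25, -2.10 for Mbp, -2.15 for Slc1a2 and -2.46 for Mobp. For the neutrophil, monocyte and border macrophage genes, it was -0.28 for Mrc1, -0.52 for Cd163, -1.86 for Ly6c2, -1.93 for S100a9, -2.09 for Ngp and -2.21 for Ltf. For other genes it was 4.20 for Tmem87a, 2.20 for Kcne2, 1.51 for Hpgd, 1.18 for Dkk2, 0.41 for Mcm6, -0.28 for Aplp2, -0.61 for Aplp1, -0.87 for Stmn1, -1.79 for Mapt, -2.26 for Fbxl16 and -2.52 for Kif5a. In at least 1 alternative setting the interaction of Ank, C3ar1, Cd163, Cd36, Cd86, Ctsb, Dkk2, Eif2s3x, Glb1, Mcm6, Mrc1, Nfkbiz and Trem2 no longer passed. Marker genes of other cells and sex-linked genes are among the largest differences on both sides, and their part in the other differences was not tested.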

How the results depend on the processing

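Higher and lower genes of AD CKO over CKO kept within 1.5 times of 1339 and 1199 under RLE scaling (1464 and 1125), DESeq2 (1312 and 913), limma-voom (1331 and 1225), no filter (1720 and 1088), at least 1 CPM in 2 libraries (1188 and 1265) and only the 4 libraries (1182 and 1217). With the replicate number as a block the counts were 1550 and 1317, and the interaction had 1248 positive and 1354 negative genes; the labels do not say that the numbers pair libraries, and deviations of same-numbered libraries correlated between -0.0439 and 0.15. Without the genes that are higher in the astrocyte libraries the counts were 783 and 531, with 438 positive and 429 negative interactions and 992 higher and 835 lower genes of AD WT over WT, fewer genes (8397) being tested. Leaving out 1 library gave 904 to 1462 higher and 712 to 1248 lower genes, 526 to 895 positive and 859 to 1078 negative interactions, and 1311 to 1972 higher and 780 to 1489 lower genes of AD WT over WT. A group with 1 library left was assumed to vary like the others. Genes near 0 changed sign without passing: B2m to 0.0020 with RLE and with DESeq2 and 0.021 with no filter, and between -0.046 and 0.044 on leaving out a library; Mcoln1 to 0.018 with no filter, and between -0.030 and 0.029 on leaving out a library; Tfeb between -0.039 and 0.24 on leaving out a library; and Csf1r to -0.0014 with at least 1 CPM in 2 libraries. Of 122 genes named, 97 kept their direction and side of the threshold for AD CKO over CKO in every alternative that gave a value, and 74 of the 87 interactions listed above did. Values under 1 CPM rest on few counts.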
